A study of Mus musculus with 12 samples.

Results

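Solute carriers are membrane proteins that move amino acids, sugars, ions, metals, vitamins and metabolites across the plasma membrane and the membranes of organelles. Members were chosen by their measured level: protein-coding genes were taken when listed for both experiments under a solute carrier symbol (Slc, a family number, the letter a and a member number) with a deposited level of at least 5 CPM (the deposited library-scaled counts) on average over 12 libraries. Left out by name were Slc2a1, Slc2a3, Slc16a1, Slc16a3, Slc7a11 and Slc25a20, of which 5 reached that mean. The set held 130 genes, of 205 protein-coding symbols of this form and of 17374 genes listed for both experiments. Because the average level chose the genes, the levels are a description. The rule uses no difference between groups, but this set was picked for description with earlier results of these data known. The members nearest above the limit were Slc4a11 (6.09 CPM), Slc11a1 (5.81 CPM) and Slc16a10 (5.30 CPM). Just below it lay Slc41a3 (4.98 CPM), Slc25a35 (4.96 CPM) and Slc25a29 (4.66 CPM).

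The genes fall into 10 classes by solute carrier family number, with single genes moved where their substrate differs, and 3 genes match the symbol only. A class therefore describes the family, and the substrate or place of each single product was not checked. The classes hold 31 mitochondrial carriers, 22 carriers of metals and heme, 21 of amino acids and peptides, 18 of the ions of pH, volume and phosphate, 9 of sugars and polyols, and 9 of vitamins, choline and cofactors. A further 7 carry monocarboxylates, organic ions and other metabolites, 5 nucleotide sugars and other solutes of the Golgi and endoplasmic reticulum, 3 nucleosides and nucleobases, and 2 lipids. The 3 genes that are not transporters are Slc9a3r1, which encodes the scaffold NHERF1, Slc7a6os and Slc4a1ap. The other 127 of the 130 genes belong to solute carrier families, though the Slc3a2 product carries no substrate itself, as described below.

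The cells were group 2 innate lymphoid cells (ILC2s), lung lymphocytes that lack antigen receptors and secrete type 2 cytokines. They were sorted from C57BL/6 mice aged 8 weeks after 3 intranasal doses of recombinant mouse IL-33 at 0.5 µg per mouse, then cultured in IL-7 and IL-2 (10 ng per mL of each) for 24 hours. These steps are common to all 4 groups of 3 libraries: ILC2s of wild-type (WT) mice, ILC2s of LAIR-1 KO mice (KO), and, in a second experiment, WT ILC2s split into LAIR-1+ and LAIR-1- fractions. LAIR-1 binds collagen and inhibits immune cells. The labels do not say whether a library is 1 mouse or a pool, so the p-values measure the spread between these libraries, which may be technical. They also name no sort on LAIR-1 for WT, so that group may hold both kinds of cell.

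How a lymphocyte takes up amino acids is well described. The heavy chain encoded by Slc3a2 (4F2hc, CD98) carries no substrate itself; it brings light chains such as LAT1 (Slc7a5), LAT2 (Slc7a8) and y+LAT2 (Slc7a6) to the cell surface, where they exchange amino acids. Other routes need no heavy chain, among them the sodium-dependent carriers of glutamine and other neutral amino acids (Slc1a5, Slc38a1, Slc38a2) and the carriers of arginine and lysine (Slc7a1, Slc7a3). Activated lymphocytes are known to raise several of these, which feed protein synthesis and the amino acid-sensing kinase mTORC1.

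Libraries held 18061470 to 20878649 estimated counts (WT and KO) and 18885002 to 28290487 (sorted fractions). The 14 ILC2 markers were all listed and tested in both experiments. Spread differed widely, with a biological coefficient of variation of 0.505 in KO against WT and 0.135 between the sorted fractions. WT 9 stood furthest apart. Its log2 levels of the solute carriers correlated at r = 0.838 with WT 10 and 0.904 with WT 11. Pairs within a sorted fraction reached at least 0.985 (across genes, which are not independent replicates). Over all genes WT 11 was closer to KO 13, 14 and 15 (0.9666, 0.9707 and 0.97004) than to WT 9 (0.9486) or WT 10 (0.9598). Pairs within KO lay at 0.9556 to 0.9626. For the solute carriers WT 11 correlated at 0.9304, 0.9547 and 0.9562 with KO 13, 14 and 15, next to 0.9393 with WT 10. WT therefore did not stand apart from KO as a group, which limits that comparison. Lair1 itself was at 3.75, 11.1 and 7.66 CPM in WT and at 0.427, 0 and 3.28 CPM in KO, so that the library labelled KO 15 lay just below WT 9. It was at 8.71, 12.4 and 12.2 CPM in LAIR-1+ and 1.10, 0.577 and 1.95 CPM in LAIR-1-. CPM values from here on are scaled by TMM within a comparison unless called deposited.

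The sequence upstream of a gene is shown for Slc7a8 and Slc3a2, the pair of amino acid transport genes that fell between the sorted fractions, and for Slc37a2, whose levels in WT and KO were furthest apart for their spread. The sequences come from the RefSeq promoter table (GRCm38.p6), which matched 98 of the 130 genes and holds 250 bases before to 50 after each start site. Only bases outside GENCODE M21 exons are given, 5′ to 3′ on the coding (minus) strand. Slc7a8 is shown for chr14:54781947-54782136 (190 bases, the last of them 60 bases short of the RefSeq start), Slc3a2 for chr19:8713898-8713960 (63 bases, inside the span of the gene but outside its exons) and Slc37a2 for chr9:37255739-37255988 (250 bases). Capitals mark matches to the GC box GGGCGG in the Slc7a8 and Slc3a2 stretches and to the AP-1 element TGANTCA, which reads on both strands, in that of Slc37a2.
Slc7a8: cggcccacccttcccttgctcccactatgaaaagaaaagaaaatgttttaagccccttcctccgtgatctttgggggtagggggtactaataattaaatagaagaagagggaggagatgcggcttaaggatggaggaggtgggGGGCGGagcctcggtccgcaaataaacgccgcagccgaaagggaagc
Slc3a2: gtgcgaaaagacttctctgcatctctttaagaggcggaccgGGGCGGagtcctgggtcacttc
Slc37a2: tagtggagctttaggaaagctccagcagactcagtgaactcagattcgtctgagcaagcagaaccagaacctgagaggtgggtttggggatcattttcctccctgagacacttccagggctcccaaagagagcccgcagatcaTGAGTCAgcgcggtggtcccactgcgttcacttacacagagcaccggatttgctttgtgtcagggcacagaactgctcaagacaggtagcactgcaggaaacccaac

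Each of the Slc7a8 and Slc3a2 stretches held 1 GC box, and the Slc37a2 stretch held none. Over the whole 300-base promoters and both strands, a GC box was found in 82.7% of the 98 matched genes and in 38.2% of 27025 genes, and TGANTCA in 8.16% against 8.97%. These motifs were searched after the sequences had been seen. The element TGATGNAA, bound by ATF4 with C/EBP partners when amino acids are short, was found in the promoter of 1 of the 15 matched amino acid carriers, Slc1a4 (6.67%), against 4.51% of all genes. The metal response element, searched as TGCGCNC or TGCACNC, was found in 8 of 17 matched metal carriers (47.1%, Wilson interval 26.2 to 69.0%), in 38 of all 98 matched solute carriers (38.8%) and in 28.2% of all genes. The solute carriers were chosen by their level and the 27025 genes were not, so these shares do not compare like sets. A match here describes letters, not binding.

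Compared per kilobase of exon, the levels of the solute carriers spanned 0.676 to 449 deposited CPM per kb, with a median of 5.87 over the 129 genes matched to GENCODE M21. The highest was Slc25a5 (449 CPM per kb), an adenine nucleotide translocase that exchanges ADP for ATP across the inner mitochondrial membrane, and its relative Slc25a4 reached 136 CPM per kb. The subunits of amino acid exchange came next, Slc3a2 at 197 and Slc7a8 at 170 CPM per kb, with Slc7a5 at 91.8 and the glutamine carrier Slc1a5 at 83.6. Among metal carriers the zinc transporter of the endoplasmic reticulum Slc39a7 (82.0 CPM per kb) and the heme transporter Slc48a1 (79.6) led. The mitochondrial phosphate carrier Slc25a3 stood at 53.9 CPM per kb. Slc50a1, a sugar transporter of the SWEET family, stood at 43.6 and the nucleoside transporter Slc29a1 at 26.4. The choline transporter-like Slc44a2 stood at 15.5 and the potassium chloride cotransporter Slc12a4 at 14.9. The Golgi carriers Slc35a4 and Slc35a1, the latter for CMP-sialic acid, stood at 49.8 and 19.5 CPM per kb. Above the median were also the nucleobase transporter Slc43a3 (17.8 CPM per kb), the glucose transporter Slc2a8 (14.8), Slc10a3 (13.98), the zinc transporter Slc30a5 (12.02), the phosphate transporter Slc20a1 (10.7) and the anion exchanger Slc4a2 (10.02). The fatty acid transport proteins Slc27a4 and Slc27a1 were lower, at 3.92 and 2.496 CPM per kb, as were Slc35a3 (3.22), Slc10a7 (2.67) and Slc29a3 (1.77). The scaffold gene Slc9a3r1, no transporter, reached 109 CPM per kb. The lowest was the organic ion transporter Slc22a15. Some caution attaches to single genes, since 40 of the 130 share exon bases with another gene and Slc39a7 shares 80.7% of its own with Gm20427. Length here is the union of all annotated exons, 5550 bases for Slc25a3 and 1646 for Slc25a5, so the order of genes depends on the annotation. Whether counting used the strand is not given in the sources used here.

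**Figure D1:**
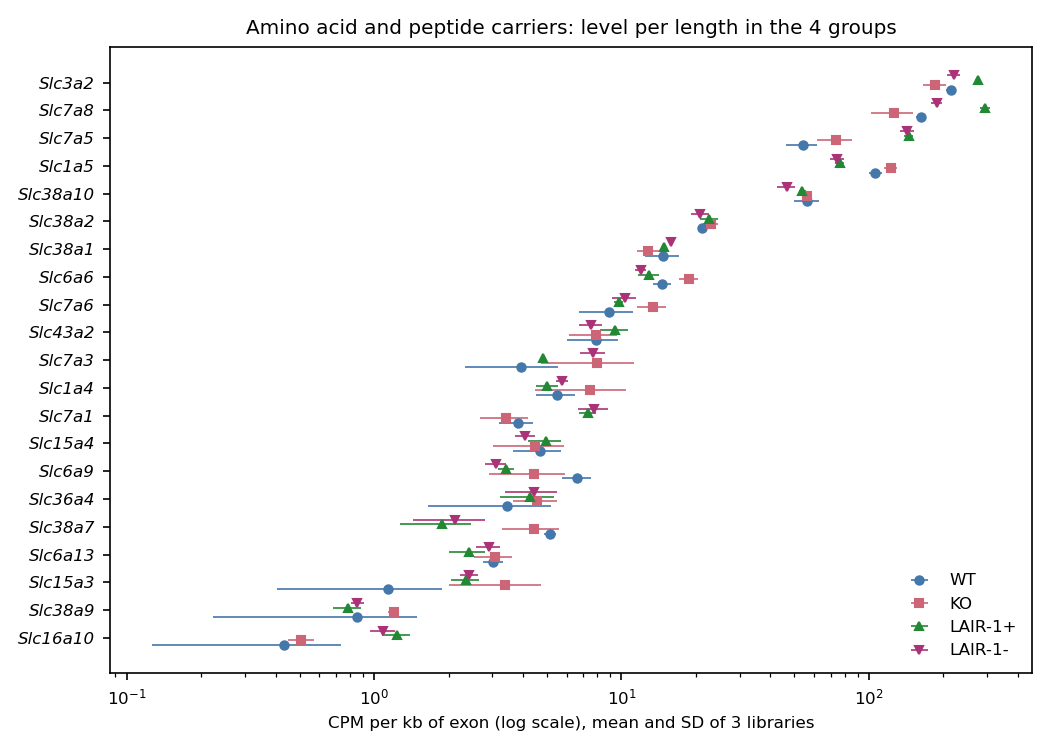
Level per length of the 21 amino acid and peptide carriers, one row per gene ordered by level, on a log axis of CPM per kb of exon (TMM-scaled). Symbols are the means of 3 libraries and bars their SD in WT, KO, LAIR-1+ and LAIR-1-; Slc3a2 and Slc7a8 lie at the top, and Slc7a5 lies further right in both sorted fractions than in WT or KO.

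Between LAIR-1- and LAIR-1+ cells 4 of 130 solute carriers changed. Slc7a8 and Slc3a2, a light chain of amino acid exchange and the heavy chain that such light chains need, fell in LAIR-1- cells. Slc16a6 and Slc7a3 rose. This is 3.08% of the set, next to 4.01% of the 14261 genes tested (1.3% higher, 2.71% lower) and 4.81% of those whose mean reached 5 CPM (edgeR quasi-likelihood test, Benjamini-Hochberg adjusted p under 0.05), a share near the background.

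Slc7a8 encodes LAT2, an exchanger of neutral amino acids that pairs with the Slc3a2 product. It is annotated at chr14:54722209-54781946 on the minus strand (mm10). LAIR-1+ libraries stood at 1404, 1537 and 1495 CPM and LAIR-1- libraries at 924.1, 906.1 and 991.6 CPM. All LAIR-1- libraries lay below all LAIR-1+ libraries, with a gap wider than either group's own range. The log2 fold change was -0.65 ± 0.064 (SE, n = 3 and 3; edgeR adjusted p = 0.000188), a drop of 36.4%.

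Slc3a2 (chr19:8706882-8723369, minus strand) stood at 945.2, 987.6 and 983.4 CPM in LAIR-1+ and at 738.2, 827.2 and 767.1 CPM in LAIR-1-. The groups did not overlap, and the log2 fold change was -0.32 ± 0.064 (SE; edgeR adjusted p = 0.0151). The call was lost when library 1 or 2 of LAIR-1+ was left out (adjusted p = 0.0553 and 0.0618), when library 7 of LAIR-1- was (0.110), and marginally when library 3 of LAIR-1+ was. In 1 fit of all 12 libraries its adjusted p was 0.194. For the light chains Slc7a5 and Slc7a6 no difference passed. Slc7a5 was at 515.4 to 558.6 CPM in LAIR-1+ and 507.8 to 568.8 in LAIR-1- (log2 fold change -0.02 ± 0.069), and Slc7a6 at 43.05 to 46.7 and 41.7 to 52.2 CPM (0.08 ± 0.10), with overlapping groups for both.

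Slc7a3 encodes CAT-3, a carrier of arginine and lysine that works without the heavy chain. It lies on the X chromosome (chrX:101079210-101086020, minus strand). LAIR-1+ libraries stood at 18.4, 17.97 and 18.5 CPM and LAIR-1- libraries at 32.9, 27.8 and 26.5 CPM. The LAIR-1+ libraries were almost equal and all LAIR-1- libraries lay above them (log2 fold change 0.66 ± 0.12, edgeR adjusted p = 0.00815). This call was lost in 1 fit of all 12 libraries (adjusted p = 1.00). The related carrier Slc7a1, at a higher level, was at 76.4 to 88.7 CPM in LAIR-1+ and 77.4 to 102.5 CPM in LAIR-1- (0.09 ± 0.11).

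Slc16a6 encodes the monocarboxylate transporter MCT7, known in zebrafish liver for the export of ketone bodies. It is annotated at chr11:109450855-109473598 on the minus strand. LAIR-1+ libraries stood at 21.5, 20.2 and 25.7 CPM and LAIR-1- libraries at 42.8, 38.5 and 40.1 CPM. No library of one group reached the other, and the fold change was the largest rise of the set (0.85 ± 0.12 on the log2 scale, edgeR adjusted p = 0.00173). In 1 fit of all 12 libraries the adjusted p was 0.417. Of its exon bases, 1052 (21.5%) overlap Amz2 on the opposite strand, whose own log2 fold change was 0.19 ± 0.12 (adjusted p = 0.488). Slc7a8, Slc3a2 and Slc7a3 share no exon bases with another gene.

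A further 4 genes had an adjusted p between 0.05 and 0.1, all without overlap between groups, and 3 of them are described here. Slc37a2, an exchanger of sugar phosphates for phosphate in the endoplasmic reticulum, was at 60.5, 58.7 and 49.4 CPM in LAIR-1+ and 70.1, 67.6 and 85.0 CPM in LAIR-1- (log2 fold change 0.41 ± 0.11, adjusted p = 0.0732). The potassium chloride cotransporter Slc12a4 was at 63.2 to 70.2 CPM in LAIR-1+ and 52.3 to 57.2 CPM in LAIR-1-, a log2 fold change of -0.29 ± 0.086 (adjusted p = 0.0929). Slc35a1, which carries CMP-sialic acid into the Golgi, was at 46.4 to 52.9 and 36.3 to 43.8 CPM, a log2 fold change of -0.36 ± 0.11 (adjusted p = 0.0979). DESeq2 called these 4 as well, 8 genes in all, and its share over all genes is not given here.

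**Figure D2:**
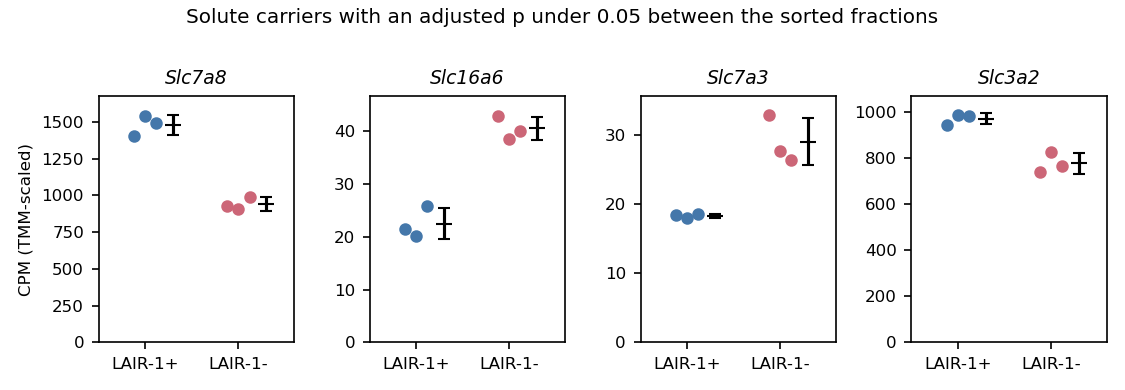
Levels of the 4 solute carriers with an adjusted p under 0.05 between the sorted fractions, each panel with its own linear CPM axis from 0. Points are single libraries (3 LAIR-1+, 3 LAIR-1-), and bars to their right the mean and SD; in every panel the groups do not overlap, and the gap is widest relative to the spread for Slc7a8 and Slc16a6.

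Without overlap between the groups were 33 of the 130 genes (25.4%), next to 21% of all genes, and 22.7% of those whose mean reached 5 CPM. They were 15 higher (next to 9.64% of all genes) and 18 lower (next to 11.3%) in LAIR-1-. At an unadjusted p under 0.05 were 26 genes (20%), next to 15.4%. The median log2 fold change of the set was -0.0045, next to 0.0054 over all genes, and 125 of the 130 lay within 0.5 of 0 on the log2 scale.

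Class by class, the change sat in single genes. Among the 21 amino acid and peptide carriers 1 rose and 2 fell, with a median of -0.02. Mitochondrial carriers had 0 calls among 31 and a median of 0.06, with 22 above 0 and 9 below. Among their most abundant genes, Slc25a5 was at 894.2 to 957.2 CPM in LAIR-1+ and 868.4 to 900.4 CPM in LAIR-1- (-0.06 ± 0.060), and Slc25a3 at 0.02 ± 0.069. Slc25a4, between them in level, was at 314.4 to 348.5 CPM in LAIR-1+ and 352.9 to 384.8 CPM in LAIR-1-, without overlap (0.16 ± 0.071, adjusted p = 0.315). Metal and heme carriers had 0 calls among 22 (median -0.04), and the largest differences without overlap were those of the zinc transporters Slc39a10 (-0.38 ± 0.14) and Slc39a13 (-0.36 ± 0.11), with Slc39a6 at 0.31 ± 0.11. Of the 9 sugar carriers 7 had a log2 fold change below 0, 3 of them with no overlap. Slc37a2 and Slc50a1 lay above 0, both with no overlap. Both fatty acid transport proteins lay below 0, Slc27a1 at -0.56 ± 0.20 (adjusted p = 0.186). Counts at an unadjusted p under 0.05 were 5 for amino acids, 4 each for metals, mitochondrial carriers and sugars, 3 for ions, 2 each for vitamins and for monocarboxylates, and 1 each for lipids and nucleotide sugars.

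**Figure D3:**
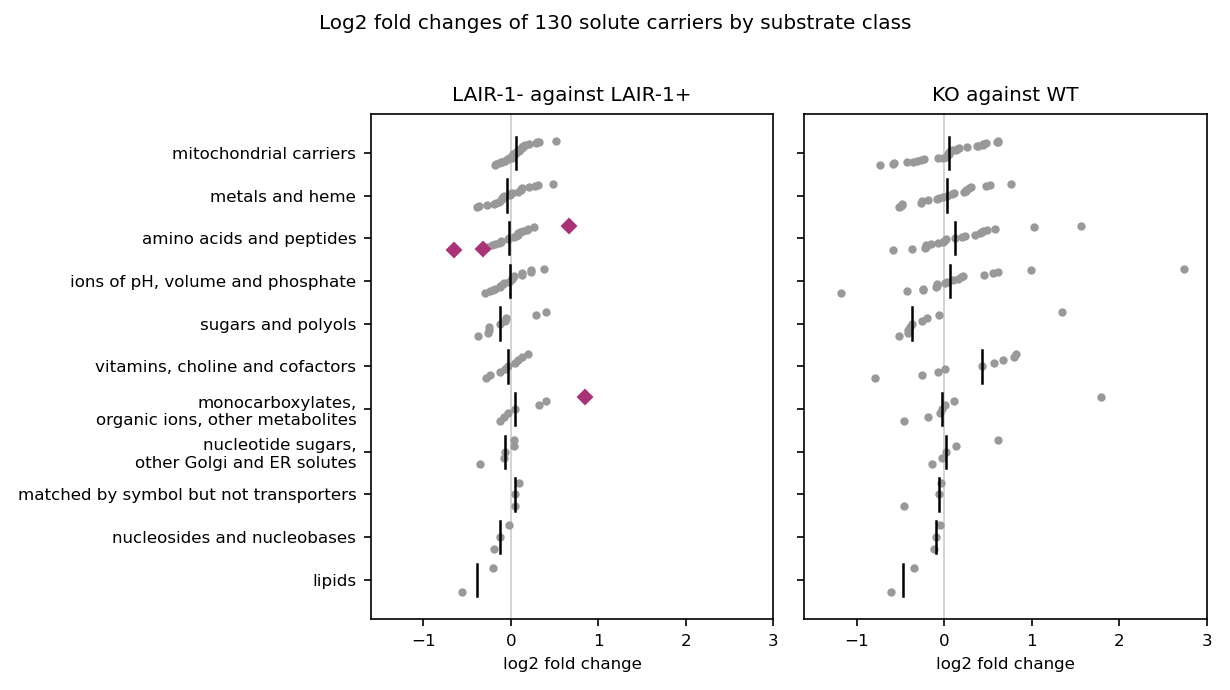
Log2 fold change of each gene by substrate class, LAIR-1- against LAIR-1+ on the left and KO against WT on the right. Dots are genes, vertical bars class medians and diamonds genes with an adjusted p under 0.05, which are the 4 named genes on the left and 0 on the right; the points spread more widely in KO against WT.

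Summed over the 21 amino acid and peptide carriers, the level was 4493 to 4724 CPM in LAIR-1+ and 3730 to 3931 CPM in LAIR-1-. Without that pair the sums were 2097 to 2200 and 1996 to 2172 CPM, which overlap. The sum of all 130 was 10784 to 11117 CPM in LAIR-1+ and 9926 to 10381 CPM in LAIR-1-, and without the pair 8435 to 8592 and 8193 to 8622 CPM.

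Markers of other cells also differed between the fractions. In summed deposited CPM, the 8 mast cell and basophil markers were at 233 to 300 in LAIR-1+ and 82.5 to 119 in LAIR-1- (Tpsab1 fell by 1.94 on the log2 scale, the 1 of 8 that passed). The 7 listed of 9 macrophage and dendritic cell markers were at 49.7 to 138 in LAIR-1+ and 0.0007 to 26.3 in LAIR-1-, where the lowest library had a count of 0 for each (Lyz2 fell). The 8 epithelial markers were at 31.5 to 102 and 22.4 to 30.1, 4 lower and Epcam higher, with Krt8 and Scgb1a1 at 0 in all 3 LAIR-1- libraries. Other sums were higher in LAIR-1-: endothelium 20.6 to 23.5 in LAIR-1+ and 33.9996 to 36.7 in LAIR-1- (Pecam1 rose), ILC3 2.25 to 3.59 and 4.17 to 6.91 (Il22 rose), B cell 6.92 to 10.9 and 12.05 to 33.3, and T cell 48.2 to 58.4 and 58.9 to 74.1, with 0 genes called in the last 2 lists. NK cell and ILC1 markers were at 3.42 to 6.25 and 1.07 to 2.90, with 0 called. The part of these markers in the solute carrier differences was not tested, and in bulk RNA fewer cells of a type and less RNA per cell cannot be told apart. ILC2 markers moved both ways, Il2ra, Klrg1 and Icos higher and Arg1 lower.

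In KO against WT 0 of the 129 solute carriers tested passed, next to 1 of 14164 genes (0.00706%, or 0.00972% of those whose mean reached 5 CPM; edgeR, adjusted p under 0.05). At an unadjusted p under 0.05 were 14 (10.9%), next to 8.37% of all genes. The groups did not overlap for 24 (18.6%), next to 16.2% (17.5% where the mean reached 5 CPM), with 18 higher (next to 8.2%) and 6 lower (next to 7.97%) in KO. Of the 18, Slc4a11 had the largest log2 fold change of the set (2.74 ± 1.37). It was at 0.939, 0.0001 and 4.93 deposited CPM in WT and 16.7, 16.03 and 6.23 in KO. Its mean over the sorted libraries was under 5 CPM, so it was a member only through the KO libraries. The rule itself favours its difference, while the 8.2% of all genes was not chosen by that limit. The median log2 fold change was 0.02, next to 0.0035 over all genes. DESeq2 called 4 genes, all higher in KO: Slc37a2, Slc19a2, Slc44a1 and Slc25a12. The share of all genes that DESeq2 called is not given here, so this count has no background beside it. One gene, Slc30a2, fell under the count filter, with estimated counts of 0, 46 and 5 in WT and 9, 11 and 0 in KO.

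The gene furthest apart for its spread was Slc37a2, the sugar phosphate exchanger. Its level was 18.97, 28.04 and 26.97 CPM in WT and 59.4, 69.3 and 60.1 CPM in KO. Every KO library lay far above every WT library, for a log2 fold change of 1.35 ± 0.20 (SE, n = 3 and 3; edgeR adjusted p = 0.183). DESeq2 gave an adjusted p of 1.38e-06 for it. Of the alternative analyses, DESeq2 among them, 2 brought Slc37a2 past the threshold and 14 did not.

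The next 3 by p were a thiamine, a choline and a mitochondrial carrier. Slc19a2, a thiamine transporter of the plasma membrane, was at 40.4, 39.99 and 44.2 CPM in WT and 78.7, 83.7 and 57.2 CPM in KO (log2 fold change 0.82 ± 0.18, edgeR adjusted p = 0.309; DESeq2 0.00600). Slc44a1, a choline transporter-like protein, was at 50.1, 31.7 and 36.7 CPM in WT and 73.7, 58.4 and 73.8 CPM in KO (0.80 ± 0.21, edgeR adjusted p = 0.403; DESeq2 0.0359). Slc25a12, the mitochondrial exchanger of aspartate for glutamate, was at 67.4, 81.9 and 71.6 CPM in WT and 98.8, 98.1 and 103.1 CPM in KO (0.44 ± 0.12, edgeR adjusted p = 0.407; DESeq2 0.0470). In all 3 genes each library of KO exceeded each of WT. Most alternative analyses did not bring them past the threshold. Slc19a2 passed in 2 and not in 15, Slc44a1 in 2 and not in 14, and Slc25a12 in 1 and not in 16. The 9 vitamin carriers had a median of 0.43, with Slc23a2, which takes up vitamin C, at -0.79 ± 0.30 and overlapping groups.

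Amino acid carriers lay on both sides. Slc7a8 was at 805.9, 781.9 and 858.6 CPM in WT and 493.8, 700.1 and 702.1 CPM in KO (-0.37 ± 0.14, edgeR adjusted p = 0.548). Slc3a2 was at 792.5, 726.6 and 751.8 CPM in WT and 583.5, 658.6 and 717.9 CPM in KO (-0.21 ± 0.090, edgeR adjusted p = 0.605). In both genes every KO library was below every WT library, KO 13 lowest. Among 5 higher in KO without overlap were the glutamine carrier Slc1a5 (0.21 ± 0.081), the taurine carrier Slc6a6 (0.36 ± 0.11), the light chain Slc7a6 (0.58 ± 0.22) and Slc15a3, a lysosomal carrier of histidine and peptides (1.56 ± 0.58). Their libraries ran from 412.9 to 461.5 CPM in WT and 478.4 to 536.3 CPM in KO for Slc1a5, and from 117.1 to 135.5 and 145.9 to 174.5 CPM for Slc6a6. For Slc7a6 they ran from 30.8 to 50.6 and 51.3 to 66.3 CPM. Slc15a3 was the noisiest of these, at 2.41, 5.92 and 10.5 CPM in WT and 14.8, 13.6 and 27.2 CPM in KO. Slc7a5 had overlapping groups, at 170.8 to 226.6 CPM in WT and 223.6 to 307.7 CPM in KO (0.45 ± 0.16). The class summed to 3400 to 3523 CPM in WT and 3119 to 3572 in KO, and without Slc7a8 and Slc3a2 to 1892 to 1917 and 2042 to 2152.

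The remaining genes of this group were Slc4a7, a sodium bicarbonate cotransporter, and Slc39a4, an importer of zinc. Slc4a7 was at 46.3, 58.1 and 33.3 CPM in WT and 70.4, 70.2 and 70.8 CPM in KO, where the libraries were nearly equal (0.62 ± 0.21). Slc39a4 was at 197.4, 164.2 and 132.9 CPM in WT and 102.1, 119.3 and 131.4 CPM in KO, the nearest libraries of both groups almost touching (-0.49 ± 0.17). Adjusted p for these 2 genes and the 4 named above as higher without overlap ran from 0.459 to 0.559 in edgeR. Of the 9 sugar carriers 8 had a log2 fold change below 0 in KO, with a median of -0.36 and Slc37a2 alone above.

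**Figure D4:**
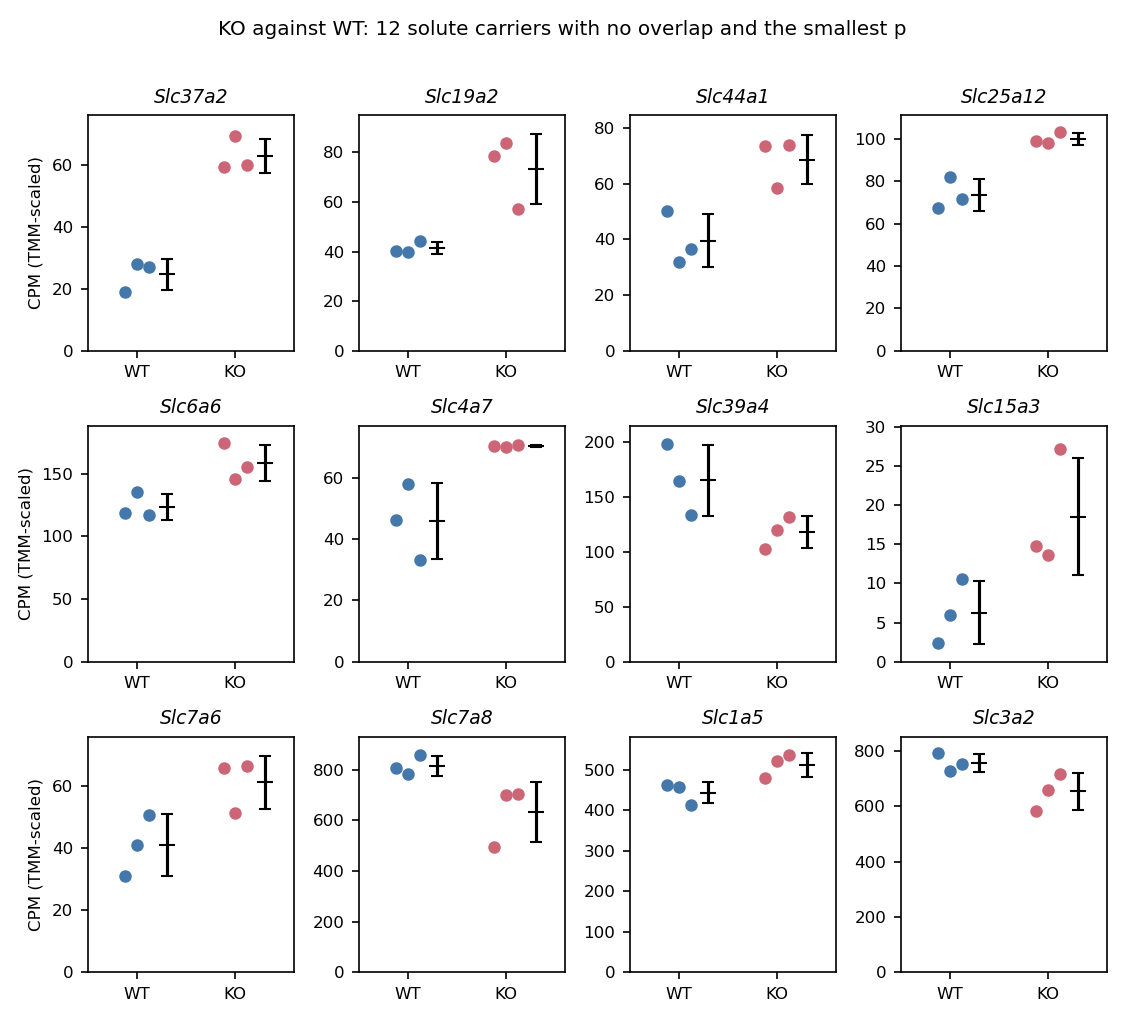
Levels of the 12 solute carriers with the smallest unadjusted p among those whose WT and KO libraries do not overlap, each panel with its own linear CPM axis from 0. Points are single libraries (3 WT, 3 KO), and bars the mean and SD; Slc37a2 shows the widest gap for its spread, and Slc7a8 and Slc3a2 are lower in KO.

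Spread limits this comparison. The highest library was at least 2 times the lowest in 35 of 129 genes within WT and 27 within KO, next to 33.8% and 29.1% of all genes, and in 2 of 130 within LAIR-1+ and 0 within LAIR-1-, next to 13.5% and 13.2%. Slc45a4, for example, was at 3.27, 45.7 and 27.7 CPM in the WT libraries. Epithelial markers, 6 of 8 of them listed, summed to 43.1 to 116 deposited CPM in WT and 15.7 to 30.4 in KO. ILC2 markers summed to 10697 to 11698 in WT and 12439 to 15348 in KO, and the 1 listed of 4 endothelial markers to 16.8 to 19.8 and 21.3 to 38.997. No gene of these lists was called, and their part in the solute carrier values was not tested. WT 9 held the lowest of the WT values for Slc45a4 and for Slc22a5, the latter at 1.98 CPM against 30.4 and 17.7.

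Whether the comparisons differed was asked in 1 fit of all 12 libraries, where 0 of 130 solute carriers passed, next to 0.192% of 15108 genes (0.113% higher, 0.0794% lower). This fit shares 1 spread between experiments of unequal spread (biological coefficients of variation 0.505 and 0.135). The experiments also differed in the sex marker Xist, described below, which the fit cannot separate from a difference between the comparisons. At an unadjusted p under 0.05 were 16 (12.3%), next to 9.41%. DESeq2 called 1, Slc37a2, and its share over all genes is not given here. The smallest p was that of Slc37a2, 0.95 ± 0.23 higher on the log2 scale in KO minus WT than in LAIR-1- minus LAIR-1+ (edgeR adjusted p = 0.213). It was followed by Slc6a6 at 0.48 ± 0.15, Slc50a1 at -0.64 ± 0.20, Slc25a51, which carries NAD+ into mitochondria, at -0.55 ± 0.17 and Slc39a4 at -0.68 ± 0.21, with adjusted p from 0.316 to 0.335. The comparisons share no library. Of the 129 genes tested in both, 71 (55.04%) had log2 fold changes of the same sign, as had 53.9% of 12814 genes. Without overlap in both comparisons and in the same direction were Slc7a8, Slc3a2 and Slc39a13 (lower) and Slc37a2, Slc19a1 and Slc22a15 (higher). These 6 are 4.65% of the 129, next to 3.21% of all genes. The direction was opposite for Slc25a51 and Slc25a25 (1.55%, next to 1.202% of all genes).

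Levels were also set side by side across the experiments, with all 12 libraries scaled together. No test was made, since the experiments were sorted and tabulated separately, the tables name gene types differently, and the sex marker Xist was at 57.6 to 91.6 CPM in the WT and KO libraries and at no more than 7.40 estimated counts in the sorted ones, which cannot be told apart from the other differences. All 6 sorted libraries lay above all 6 WT and KO libraries for 17 genes (13.1%, next to 11.2% of all genes) and below them for 7 (5.38%, next to 13%). Of the 17, 4 had a mean under 5 CPM in WT and KO and were members only through the sorted libraries (Slc30a2, Slc2a9, Slc25a23 and Slc16a10), so the rule itself favours their difference. The 13.1% counts these 4, while the 11.2% of all genes was not chosen by that limit. The shares therefore do not compare like sets. Among the 4, Slc30a2, a zinc transporter of secretory vesicles, had a median of 0.328 CPM in WT and KO and 19.3 CPM in the sorted cells. The urate carrier Slc2a9 had medians of 3.96 and 17.5 CPM. Outside these 4, Slc7a5 had medians of 219 and 555 CPM and Slc7a1 of 42.8 and 93.1 CPM. In the other direction were Slc39a4 at 130 and 57.5 CPM and Slc38a7, a lysosomal glutamine carrier, at 19.9 and 8.198 CPM. Slc7a8 and Slc3a2 were above in the sorted cells as well, with medians of 725 and 1261 CPM and of 706 and 934 CPM.

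**Figure D5:**
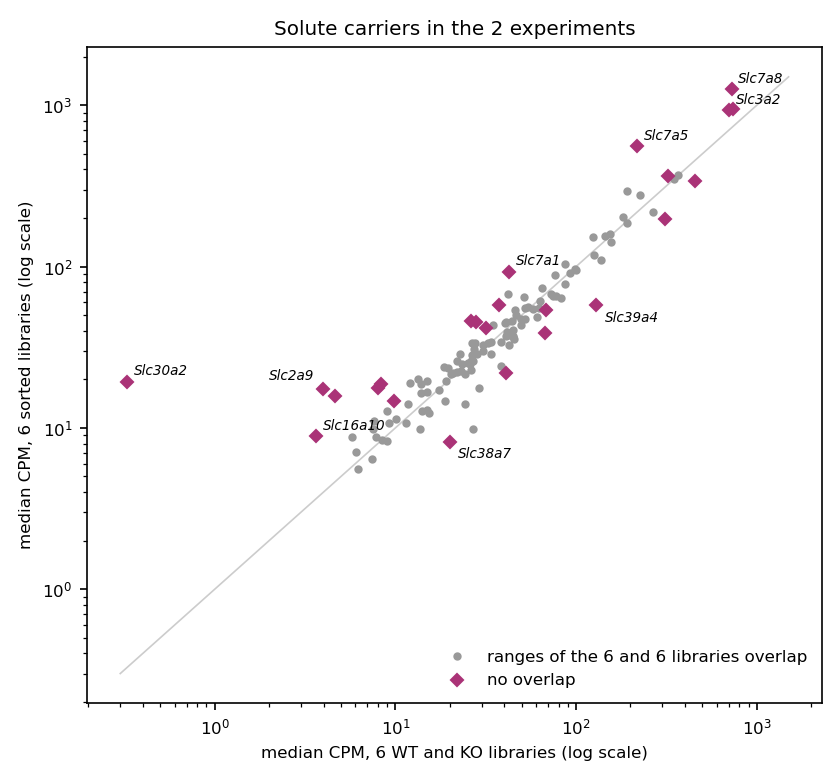
Median level of each solute carrier in the 6 WT and KO libraries (x) and in the 6 sorted libraries (y), in CPM on log axes, with the line of equal levels in grey. Diamonds mark the 24 genes whose libraries do not overlap between the experiments, 17 above and 7 below; Slc30a2, furthest from the line, is 1 of 4 that reached the limit of 5 CPM only through the sorted libraries.

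Genes that work with the solute carriers were counted in 6 lists. Between the sorted fractions, 0 of 17 sodium and proton pump genes passed (Fxyd5, a regulator of the sodium pump, was at -0.14 ± 0.071 and its subunit gene Atp1b3 at 0.03 ± 0.069), and 0 of 20 other mitochondrial transport proteins. Of 25 genes of amino acid sensing and mTORC1, 1 passed: Sesn3, whose product restrains mTORC1 when amino acids are short, fell by 0.67 ± 0.12 (edgeR adjusted p = 0.00763). In metal handling 2 of 21 passed, transferrin (Trf), which rose by 1.39 ± 0.27, and the ferritin heavy chain (Fth1), which fell by 0.29 ± 0.070. Among 18 kinases and scaffolds of ion transport 2 fell, the ubiquitin ligase Nedd4l (-0.57 ± 0.10) and Lrrc8b (-0.44 ± 0.10), a subunit of volume-regulated anion channels. Of 24 ABC transporters, Abca2 (-0.44 ± 0.11) and Abcc3 (-0.80 ± 0.18) fell. The adjusted p of these 6 genes ran from 0.00772 to 0.0445, and 4.01% of all genes passed. In KO against WT 0 genes passed in each of the 6 lists, next to 0.00706% of all genes.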

How the data were processed

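The members and gene lists were chosen with earlier results of these data known. RNA of 12 ILC2 libraries was sequenced. Per experiment, the authors deposited estimated counts per gene and the same genes as CPM (scaled to a library total, plus 0.0001, as the values show). STAR 2.5.3a, bcl2fastq 2.17.1.14, Partek and mm10 are listed in the submitters' processing notes. Counting step, annotation and strandedness: not given in the sources used here. Deposited CPM served to choose members.

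Estimated counts were rounded and each comparison fitted from its own 6 libraries: filterByExpr, TMM, quasi-likelihood F test of edgeR 4.0.16 (R 4.3.3), Benjamini-Hochberg adjustment over all genes, threshold 0.05. The code was tested on simulated data. Standard errors are the log2 fold change over the root of F, and a positive value means higher in KO or in LAIR-1-. The difference was tested in 1 fit of 4 group means. Exon lengths, positions and overlaps came from GENCODE M21 (mm10), counted from 1.

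Named by rule were members that passed or had an adjusted p under 0.1 between fractions, in KO against WT the 12 smallest p without overlap, the 3 highest levels per class, the 5 smallest p for the difference, and the neighbours of the limit. 1 of these is not reported here. Others (among them Slc7a5, Slc7a6, Slc7a1, Slc45a4, Slc22a5 and the genes set across experiments) were chosen after their values were seen. Alternatives were other scalings, filters and tools (DESeq2 1.42.0, limma 3.58.1), all 12 libraries in 1 fit, other member limits and leaving out each library.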

Additional observations from a re-analysis of the deposited data

How the results depend on the processing

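No paired analysis was made because the labels give no pairing, and the groups compared share no replicate number. Whether LAIR-1+ and LAIR-1- libraries came from the same mice is not given in the labels. Of 442 pairs of a named result and an alternative, 422 kept direction and side of the threshold, 13 came to pass it, 7 no longer passed, and none turned direction. Between the fractions the count of 4 became 2 with a mean of at least 50 CPM (Slc7a3 and Slc16a6 are below that), 8 with DESeq2, 1 (Slc7a8) with all 12 libraries in 1 fit, where Slc16a6, Slc7a3 and Slc3a2 had an adjusted p of 0.417, 1.00 and 0.194, and 3 to 5 with a library left out. Slc3a2 was lost without LAIR-1+ 1, 2 or 3 or LAIR-1- 7. In KO against WT the count of 0 became 4 with DESeq2 and 3 with all 12 libraries, and stayed 0 with each library left out. For the difference it became 1 with DESeq2 and stayed 0 with each library left out. The joint fit shares 1 spread between experiments of unequal spread. Its part in these changes was not tested, nor was any other cause. The share of all genes called under each alternative is not given here, so these counts have no background beside them. The share of amino acid carriers with TGATGNAA became 0% in 250 bases before the start only. With a mean of at least 2, of at least 10, or 5 in each library, the members numbered 150, 112 and 105. Of these, 2.67%, 3.57% and 3.81% passed between the fractions, next to 4.01% of all genes. With 3 libraries a group and the spread in KO against WT, a p that misses the threshold does not show that levels were alike.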
